A study of Mus musculus with 48 samples.

Results

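The Hmx neurons described here are hypothalamic neurons of mouse embryos that were caught with RNA of *Hmx2* or *Hmx3*. A cell was a member when it held at least 1 UMI (unique molecular identifier, 1 counted transcript molecule) of *Hmx2* or *Hmx3* and when at least 3 of 6 general neuron genes (*Stmn2*, *Tubb3*, *Snap25*, *Syt1*, *Elavl4* and *Rbfox3*) were detected. The rule gave 739 cells, which are 5.23% of the 14121 cells of the series and 6.64% of the 11122 cells that passed the neuron part of the rule. The remaining 10383 cells that passed the neuron part are called other neurons. The members were selected on measured values, so the levels of *Hmx2*, *Hmx3* and the 6 neuron genes are a description of the selection and not a result.

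The cells came from the hypothalamus at E18.5 of 6 control embryos (*Eed* fl/fl, both copies of *Eed* floxed) and 9 *Eed-cKO* embryos (*Eed* fl/fl; *Sox1-Cre*/+), on a mixed strain background. *Cre* was inserted into the *Sox1* locus and acts in the whole central nervous system from the neural plate on, so the deletion is not limited to Hmx neurons. The dissected tissue had been cut into pieces before dissociation. There were 48 libraries of 576432 to 4513505 UMIs, 1 to 4 from each embryo, and the libraries of an embryo were summed so that the embryo is the replicate. The leading number of the library names was taken for the litter, without a label that says so. No litter read in this way held both genotypes, so litter and genotype cannot be told apart.

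*Hmx2* and *Hmx3* (also known as *Nkx5-2* and *Nkx5-1*) are neighbouring homeobox genes that encode transcription factors. They are needed for the vestibular part of the inner ear and, in the arcuate nucleus of the hypothalamus, for the neurons that make growth hormone-releasing hormone (*Ghrh*), together with the homeobox gene *Gsx1*. *Eed* encodes a core subunit of the polycomb repressor complex 2 (PRC2), which places the repressive mark H3K27me3 on the chromatin of developmental regulator genes.

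Control embryos gave 407 members, which are 41, 64, 57, 62, 96 and 87 cells in control embryos 1 to 6. *Eed-cKO* embryos gave 332 members, which are 36, 55, 70, 37, 48, 36, 15, 27 and 8 cells in *Eed-cKO* embryos 1 to 9. *Eed-cKO* embryo 9, with 8 members, was left out of every test of expression and every mean over embryos of expression, which rest on 6 control and 8 *Eed-cKO* embryos. Counts of members with a UMI are over all 332 *Eed-cKO* members, those of embryo 9 included, and were not tested. Control members had a median depth of 5144 UMIs and *Eed-cKO* members of 5270, where other neurons had 5230 and 4804.5. The members of an embryo summed to 76842 to 494413 UMIs in the 14 embryos compared, so genes at low levels rest on few molecules.

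Some cells and libraries stood apart. The largest library, from control embryo 5, held 1207 cells where the other libraries held 163 to 465, and its cells had a median of 2919 UMIs. It supplied 75 of the 96 members of that embryo, at 7.37% of its neurons against 5.95% in the other libraries of the embryo. Of the 14019 cell barcodes, 101 occurred in more than 1 library, 10 members carried such a barcode, and 0 barcodes were shared between members. The 6% of cells per library with the highest doublet score held 71 members (9.61%), and they were removed only as an alternative.

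Of all 775 cells with an *Hmx2* or *Hmx3* UMI, 36 were not members. Just outside the threshold on neuron genes were 28 cells with 2 of the 6 genes, and just inside it were 81 members with 3. Most members were well inside: 209 had 4 of the neuron genes, 285 had 5 and 164 had 6. On the side of the homeobox genes the rule sits at its minimum, since 429 members held 1 UMI of the pair, 156 held 2 and 154 held 3 or more, up to 8.

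Free RNA in droplets can put a UMI into a cell that does not express the gene. Among cells outside the neuron rule, 17 of 1288 control cells (1.32%, 95% Wilson interval 0.826 to 2.10%) and 19 of 1711 *Eed-cKO* cells (1.11%, 0.712 to 1.73%) held an *Hmx2* or *Hmx3* UMI, at median depths of 1914.5 and 2758 UMIs. Among cells assigned to vessels, fibroblasts or microglia, which should lack both genes, it was 0 of 246 control cells, which allows a share of up to 1.22%, and 2 of 414 *Eed-cKO* cells (0.483%, 0.133 to 1.74%), at medians of 3987 and 3656 UMIs. These shares were below the 6.64% of neurons that were members, but members were deeper (medians of 5144 and 5270 UMIs), so depth was not matched. The part of free RNA among members with 1 UMI was not tested. Intervals and limits cover counting error only.

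*Hmx3* lies at chr7:131542867-131544925 and *Hmx2* at chr7:131548773-131558014, both on the plus strand of mm10 (GENCODE vM21), 3848 bases apart. *Bub3*, which encodes a mitotic checkpoint protein, starts 2208 bases beyond the end of *Hmx2* on the same strand, and all 3 genes lie inside the antisense gene *Fgfr2*. *Hmx2* was found in 471 members, *Hmx3* in 432 and both in 164. In control, 177 members (43.5%) held *Hmx2* alone, 132 (32.4%) *Hmx3* alone and 98 (24.1%) both. In *Eed-cKO*, the numbers were 130 (39.2%), 136 (41.0%) and 66 (19.9%).

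The share of neurons that were Hmx neurons did not differ detectably between the genotypes. It was 5.18% in the lowest control embryo, 6.62% at the median and 9.58% in the highest, against 3.90%, 5.92% and 9.33% in *Eed-cKO* embryos. The ranges overlapped almost wholly. The means were 6.87% ± 1.48 (SD, n = 6) and 6.25% ± 1.94 (SD, n = 9), a difference of -0.619 percentage points (exact two-sided permutation test over 5005 splits of the embryos, p = 0.511, Benjamini-Hochberg adjusted over 4 shares 0.682, smallest p possible 0.0004). In single-cell sums, fewer cells with a gene above detection and less RNA of that gene per cell cannot be told apart.

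A larger share of Hmx neurons held UMIs of both fast transmitter systems in *Eed-cKO*. *Slc17a6* encodes the vesicular glutamate transporter VGLUT2 and *Slc32a1* the vesicular transporter of GABA and glycine. Members with a UMI of both made up 1.61% of members in the lowest control embryo, 7.17% at the median and 16.7% in the highest, and 9.09%, 28.8% and 40% in *Eed-cKO*. Only the lowest *Eed-cKO* embryo lay within the control range. The mean rose from 7.30% ± 5.26 (SD, n = 6) to 27.4% ± 9.65 (SD, n = 8), by 20.1 percentage points (exact two-sided permutation test over 3003 splits, p = 0.00133, adjusted 0.00533). Among cells assigned to vessels, fibroblasts or microglia, which should lack both transporters, 0.407% of 246 control and 0.483% of 414 *Eed-cKO* cells held both, a *Slc17a6* UMI was found in 8.13% and 7.25% and a *Slc32a1* UMI in 3.25% and 1.69%, at median depths of 3987 and 3656 UMIs. The part of free RNA in the shares of Hmx neurons was not tested further.

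The share of members with *Slc32a1* alone was lower in *Eed-cKO*, while that with any *Slc32a1* UMI was 49.1% of all control and 50.3% of all *Eed-cKO* members and that with any *Slc17a6* UMI 31.4% and 49.4% (not tested). The share with *Slc32a1* alone was 30.2%, 44.3% and 48.4% in the lowest, median and highest control embryo and 16.7%, 23.8% and 36.1% in *Eed-cKO*, so that the ranges overlapped at their edges. The mean fell from 42.1% ± 6.61 (SD, n = 6) to 24.8% ± 7.48 (SD, n = 8), a difference of -17.3 points (same exact permutation test, p = 0.00266, adjusted 0.00533). Members with *Slc17a6* alone stood at 22.6% ± 5.16 and 22.3% ± 8.54 (n = 6 and n = 8, exact permutation p = 0.94). When every cell was thinned to 2000 UMIs, leaving out 32 control and 19 *Eed-cKO* members, the difference in members with both was 8.11 points (exact permutation p = 0.00599, n = 6 and n = 8) and that in members with *Slc32a1* alone was -4.53 points (p = 0.268, exact permutation). Among other neurons 4.74% ± 2.08 of control and 21.4% ± 4.61 of *Eed-cKO* cells held both transporters. *Slc32a1* alone was held by 22.7% ± 3.80 and 11.2% ± 1.93 of them, lower than in members (SD over 6 and 8 embryos, not tested against members).

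**Figure D1:**
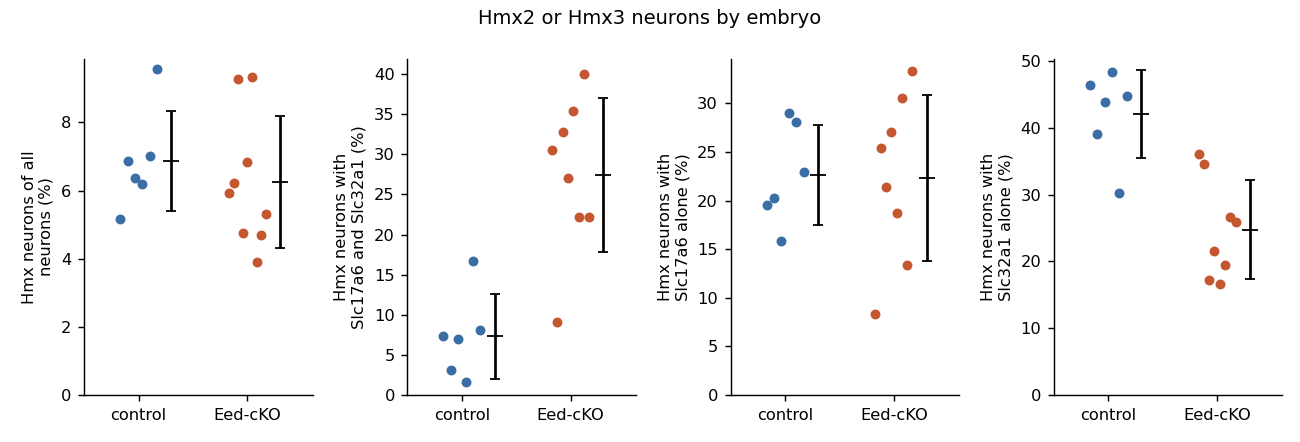
Shares in percent by embryo: Hmx neurons among all neurons, and members with *Slc17a6* and *Slc32a1*, with *Slc17a6* alone and with *Slc32a1* alone. Points are embryos (control blue, *Eed-cKO* red), the bar is the mean with SD; the share of Hmx neurons overlaps between genotypes, while the mean share with both transporters goes from 7.30% to 27.4%.

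Before the genotypes were compared within Hmx neurons, the Hmx neurons of each genotype were compared with the other neurons of the same embryos, to see which genes these cells carry apart from those of the rule. Levels are given in CPM, the UMIs of a gene relative to all UMIs of the embryo's summed cells after TMM scaling, and the test was edgeR's quasi-likelihood test with the embryo as a block and Benjamini-Hochberg adjustment over all genes tested. In control embryos, 631 of 14530 genes passed an adjusted p of 0.05, with 194 higher in Hmx neurons (1.34% of those tested) and 437 lower (3.01%). In *Eed-cKO* embryos it was 460 of 14664, with 98 higher (0.668%) and 362 lower (2.47%). With library size as the only scaling the *Eed-cKO* split was 133 higher and 214 lower, with RLE factors 141 and 207, and without *Eed-cKO* embryo 1 the number passing was 295. Of these calls 256 were shared, 40.6% of the control and 55.7% of the *Eed-cKO* calls, 252 in the same direction.

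Of the 5 markers named for these neurons besides the rule genes, *Gal*, *Cited1*, *Isl1* and *Ecel1* were higher in the Hmx neurons of both genotypes. *Calcr* did not pass the test in control. These markers had been chosen with earlier results of these data known, so they are no independent check of an arcuate identity. Of the peptide genes known from arcuate neurons, *Agrp* (-1.60 ± 0.34), *Npy* (-2.18 ± 0.19) and *Pomc* (-1.38 ± 0.35) were lower in control Hmx neurons than in other neurons and *Ghrh* did not pass. *Gsx1* (2.44 ± 0.35), *Th* (1.13 ± 0.22) and *Esr1*, an estrogen receptor gene (1.42 ± 0.35), all also read in arcuate neurons, were higher. The call of *Esr1* was lost without control embryo 6, with at least 2 Hmx UMIs and in thinned cells. The genes thus went both ways, and the cells are called Hmx neurons by their rule.

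*Gal*, the gene of the neuropeptide galanin (chr19:3409915-3414544, minus strand), stood at 125 CPM in the lowest, 311 at the median and 414 in the highest control embryo in Hmx neurons, against 48.4, 58.8 and 84.1 in other neurons. Every control embryo was higher in Hmx neurons, by 2.22 ± 0.13 on the log2 scale (fold change ± SE, adjusted p = 4.3e-26). *Isl1*, which encodes a LIM homeodomain factor of arcuate neurons (chr13:116298281-116309689, minus strand), stood at 177, 366 and 445 CPM against 94.4, 133 and 188, a difference of 1.31 ± 0.09 (adjusted p = 2.2e-21). *Cited1*, which encodes a transcriptional coactivator (chrX:102247381-102252181, minus strand), stood at 112, 136 and 220 CPM against 47.0, 85.2 and 111, a difference of 0.98 ± 0.13 (adjusted p = 2e-08). *Ecel1*, which encodes an endopeptidase-like membrane protein of neurons, stood at 83.0, 106 and 178 CPM against 39.5, 51.4 and 64.9, a difference of 1.23 ± 0.13 (adjusted p = 4e-13). For *Gal*, *Cited1* and *Ecel1* the levels of the control embryos did not overlap between Hmx neurons and other neurons, while those of *Isl1* overlapped at the edge. In *Eed-cKO* the differences were 1.52 ± 0.12 for *Gal*, 1.23 ± 0.08 for *Isl1*, 1.59 ± 0.09 for *Cited1* and 1.15 ± 0.14 for *Ecel1*, with the same direction in 8 of 8 embryos for each.

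*Calcr* encodes the calcitonin receptor (chr6:3685680-3764714, minus strand). Its level in control Hmx neurons was 50.2, 70.2 and 128 CPM at the lowest, median and highest embryo, against 43.2, 65.3 and 71.6 in other neurons, higher in 3 of 6 embryos (log2 fold change 0.27 ± 0.15, adjusted p = 0.44). In *Eed-cKO* it was 119, 176 and 324 CPM against 63.1, 115 and 166, higher in 6 of 8 embryos (0.67 ± 0.10, adjusted p = 8.9e-09), a call that DESeq2 did not make (adjusted p = 0.112).

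*Ghrh* was rare among Hmx neurons. A *Ghrh* UMI was found in 9 of 407 control members (2.21%) and 7 of 332 *Eed-cKO* members (2.11%), against 2.00% and 1.33% of other neurons. Of all neurons with a *Ghrh* UMI, 9 of 119 in control (7.56%, 95% Wilson interval 4.03 to 13.8%) and 7 of 72 in *Eed-cKO* (9.72%, 4.79 to 18.7%) were members. The UMIs were concentrated, with 92.0% of the 88 control UMIs and 95.9% of the 97 *Eed-cKO* UMIs in 3 cells of each genotype. The level was 0, 3.32 and 173 CPM in control and 0, 1.3 and 221 CPM in *Eed-cKO* at the lowest, median and highest embryo, and the genotypes did not differ detectably (log2 fold change 0.52 ± 0.73, adjusted p = 0.84). Against other neurons, *Ghrh* differed by -0.11 ± 0.30 in control (adjusted p = 0.93). It differed by 2.26 ± 0.37 in *Eed-cKO* (adjusted p = 1.3e-07), where 3 of 8 embryos were higher, and this call was lost without *Eed-cKO* embryo 2, without *Eed-cKO* embryo 4, under DESeq2 and with at least 2 Hmx UMIs asked of a member (highest adjusted p over the alternatives 0.986).

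**Figure D2:**
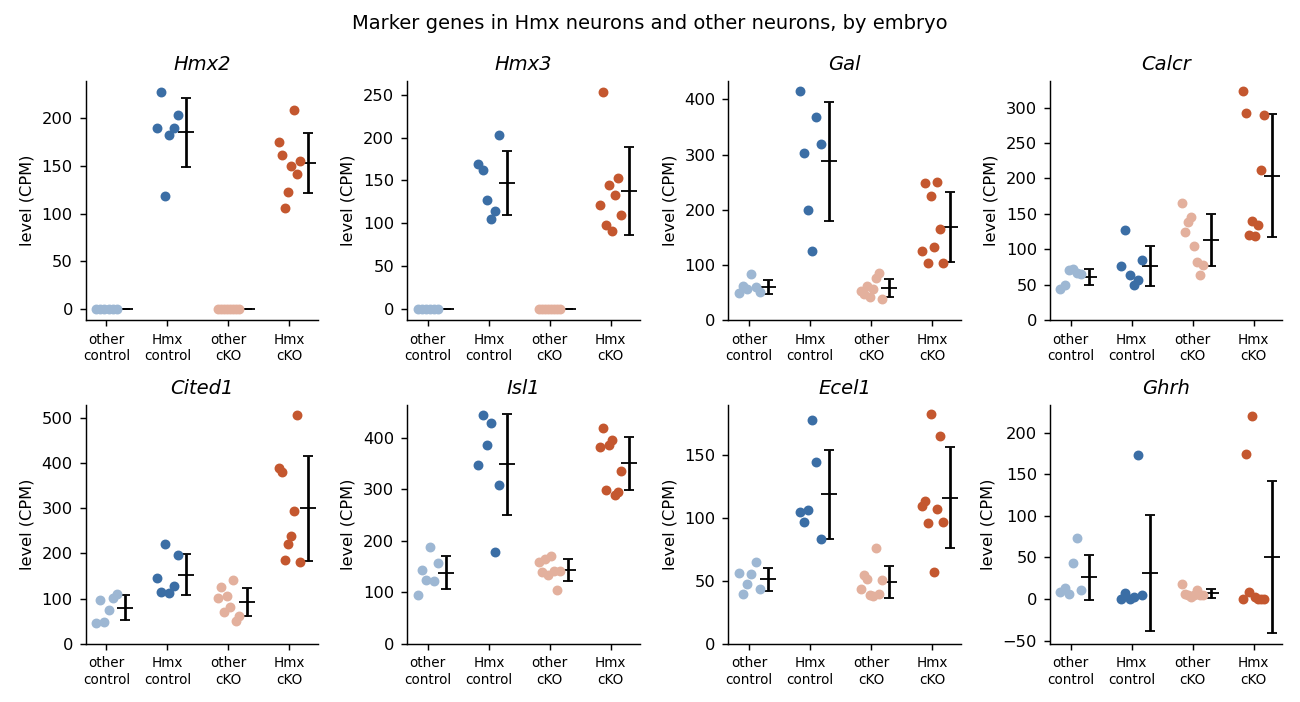
Level in CPM of *Hmx2*, *Hmx3*, *Gal*, *Calcr*, *Cited1*, *Isl1*, *Ecel1* and *Ghrh* in other neurons and Hmx neurons of each genotype. Each point is an embryo (6 control, 8 *Eed-cKO*) and the bar is the mean with SD; *Hmx2* and *Hmx3* are 0 in other neurons by the rule, *Calcr* is higher in the Hmx neurons of *Eed-cKO* (median 176 against 70.2 CPM), and *Ghrh* rests on a few embryos.

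The 10 largest rises in control Hmx neurons against other neurons, among genes that moved the same way in all 6 embryos, held transcription factor, receptor and peptide genes. Besides *Gal* they included *Sox3*, an HMG box factor of hypothalamic progenitors (11.4, 63.6 and 133 CPM against 7.73, 10.8 and 16.5, log2 fold change 2.55 ± 0.24, adjusted p = 5e-15), and *Gsx1* (chr5:147188696-147190947, plus strand, 16.1, 21.3 and 37.8 CPM against 2.99, 4.28 and 5.55, 2.44 ± 0.35, adjusted p = 1.2e-07). *Gsx1* was also higher in *Eed-cKO* (2.56 ± 0.32, adjusted p = 9e-13). The peptide gene *Nts*, neurotensin, stood at 67.7, 275 and 543 CPM against 47.4, 78.7 and 125 (1.74 ± 0.16, adjusted p = 9.7e-15). They also included the Wnt receptor gene *Fzd5* (2.35 ± 0.29), the cholecystokinin receptor gene *Cckar* (1.80 ± 0.46), *Pgr15l* (2.47 ± 0.34), *BC048546* (1.93 ± 0.30) and *Bub3*. The call of *Cckar* rested on 26 control UMIs and was lost in 5 of 16 alternatives, among them without control embryo 2 and without control embryo 3 (highest adjusted p 0.755). Those of *Pgr15l* and *BC048546* were lost in thinned cells. *Bub3*, the downstream neighbour of *Hmx2*, stood at 301, 449 and 606 CPM in control Hmx neurons against 120, 134 and 153 in other neurons, without overlap (1.75 ± 0.08, adjusted p = 1.1e-32), and at 308, 406 and 541 CPM against 128, 141 and 155 in *Eed-cKO*. Whether the reads of the 3 neighbours could be told apart by the counting was not tested.

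GABA genes were higher in control Hmx neurons than in other neurons, and many peptide and transcription factor genes of other hypothalamic neurons were lower, though cells with them were present. Of the 6 transmitter genes tested in control, 3 were higher (*Gad1* by 0.99 ± 0.07, *Gad2* by 1.09 ± 0.08 and *Slc32a1* by 0.82 ± 0.10 on the log2 scale) and *Slc17a6* was lower (-1.19 ± 0.09). Of 30 neuropeptide genes, *Gal*, *Nts*, *Hcrt* and *Npvf* were higher and 10 were lower, among them *Avp* (vasopressin, -6.33 ± 0.17), *Oxt* (oxytocin, -5.64 ± 0.38), *Sst* (somatostatin, -3.21 ± 0.16), *Npy* and *Pomc*. The call of *Pomc* was lost in 6 of 16 alternatives, among them without control embryo 4, without control embryo 5 and without the largest library. The calls of *Hcrt* and *Npvf* rested on 5 and 3 control members. Both were lost under DESeq2, and that of *Hcrt* also with doublets removed. A *Hcrt* UMI was found in 1.23% of control members and 0.965% of other neurons. The median over these 30 genes was -0.91, against -0.05 over all genes tested. Of 36 hypothalamic transcription factors, 6 were higher (*Isl1*, *Dlx1*, *Dlx2*, *Dlx5*, *Lef1* and *Nr2f2*) and 16 were lower, among them *Sim1* of the paraventricular nucleus (-2.26 ± 0.25), *Foxb1* of the mammillary region (-2.94 ± 0.24) and *Meis2* (-3.27 ± 0.25). The call of *Dlx5* was lost without control embryo 2, with at least 2 Hmx UMIs and in thinned cells. Those of *Lef1* and *Nr2f2* were also lost in thinned cells. *Th*, the rate-limiting enzyme of dopamine synthesis, was higher (1.13 ± 0.22), while *Slc6a3*, the dopamine transporter (-3.20 ± 0.57), and *Nr4a2* (-3.61 ± 0.34) were lower. Thinned cells did not keep the call of *Slc6a3*.

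The promoter windows of *Gsx1* and *Ecel1*, both higher in the Hmx neurons of both genotypes, are shown because they hold the letters CAAGTG, a core sequence bound by Hmx homeodomains. The windows are from RefSeq (GRCm38.p6), each of 300 bases over a start of the gene, 5′ to 3′ along the gene, with CAAGTG in capitals, and lie at chr5:147188446-147188745 (plus strand) and chr1:87156307-87156606 (minus strand). The letters were searched on both strands (CACTTG on the other), and 4455 of all 32851 windows (13.6%) hold them. They are not in the windows of *Hmx2*, *Hmx3*, *Gal*, *Calcr*, *Cited1*, *Isl1*, *Ghrh* or *Bub3*, and a match is a description of the letters and not a binding site.
Gsx1: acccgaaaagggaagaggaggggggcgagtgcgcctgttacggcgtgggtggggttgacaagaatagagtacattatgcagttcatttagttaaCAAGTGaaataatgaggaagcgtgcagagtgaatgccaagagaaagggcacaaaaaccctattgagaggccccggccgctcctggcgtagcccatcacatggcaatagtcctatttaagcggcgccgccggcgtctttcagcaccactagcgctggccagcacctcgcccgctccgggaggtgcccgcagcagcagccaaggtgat
Ecel1: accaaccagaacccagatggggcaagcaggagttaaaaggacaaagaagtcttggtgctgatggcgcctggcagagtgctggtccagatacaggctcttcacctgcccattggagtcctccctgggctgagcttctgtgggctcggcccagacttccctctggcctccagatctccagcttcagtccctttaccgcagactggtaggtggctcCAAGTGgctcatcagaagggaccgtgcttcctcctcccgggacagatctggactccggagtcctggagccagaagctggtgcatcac

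Within Hmx neurons, 393 of 11597 genes differed between *Eed-cKO* and control embryos by edgeR's quasi-likelihood test at an adjusted p of 0.05, 219 higher (1.89% of those tested) and 174 lower (1.50%) in *Eed-cKO*. The number was 235 without *Eed-cKO* embryo 3 and 256 without *Eed-cKO* embryo 6, and with library size as the only scaling 252 were higher and 130 lower. The embryos of the genotypes did not overlap for 89 genes (0.767%), of which 76 were among the 393. The same test among other neurons called 2293 of 15504 genes (14.8%), with more cells behind each sum. Of the 393 genes, 292 (74.3%) were among those 2293 (12.7% of them), 291 in the same direction, so most of what changed in Hmx neurons also changed in other neurons.

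The floxed gene itself was low. *Eed* stood at 16.1, 31.5 and 42.6 CPM in control and 13, 21.9 and 46.7 CPM in *Eed-cKO* Hmx neurons at the lowest, median and highest embryo (log2 fold change -0.44 ± 0.32, adjusted p = 0.6). Where its 3′ tags lie relative to the floxed exons was not examined, so this level does not check the deletion. The paper reported lower *Eed* in *Eed-cKO* over all its hypothalamic cells. None of the 10 PRC2 genes tested passed in Hmx neurons (median log2 fold change -0.11, against 0.00 over all genes tested).

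Hox genes, which pattern the hindbrain and spinal cord and are silent in the forebrain, were detected in Hmx neurons of *Eed-cKO* and not in those of control. Of 34 Hox genes in the table, all 34 were at 0 UMIs in the control members, and all 14 that passed the filter rose in *Eed-cKO*, so a passing Hox gene had to be one found in *Eed-cKO*. A Hox UMI was found in 0 of 407 control members, which allows a share of up to 0.737%, and in 169 of 332 *Eed-cKO* members (50.9%, 95% Wilson interval 45.5 to 56.2%). By embryo the *Eed-cKO* share was 32.4%, 48.2% and 69.4% at the lowest, median and highest. Other neurons gave 6 of 5491 (0.109%) and 2292 of 4892 (46.9%), so the share was of like size outside Hmx neurons. Among cells assigned to vessels, fibroblasts or microglia it was 1 of 246 in control (0.407%) and 54 of 414 in *Eed-cKO* (13.04%, 95% Wilson interval 10.1 to 16.6%), at medians of 3987 and 3656 UMIs. How much of the share in Hmx neurons came from free RNA was not tested. *Hoxc10* (chr15:102966796-102971893) had the most UMIs of the Hox genes named here, at 25.8, 65.7 and 129 CPM in *Eed-cKO* members from 132 UMIs against 0 in control, at least 51.8-fold higher with control set at 3 UMIs over all its members. It overlaps *Hoxc5* on the same strand, and their reads in the overlap cannot be told apart. By the same bound *Hoxb13* was at least 37.7-fold, *Hoxc13* at least 29.4-fold, *Hoxa9* at least 21.6-fold and *Hoxa10* at least 20.8-fold higher. For these 14 genes the median log2 fold change was 3.76 with all at this bound.

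Some transcription factor genes of other brain regions were also higher in *Eed-cKO*. *Tfap2b* (chr1:19208914-19238576, plus strand) and *Tfap2a* encode AP-2 factors of the neural crest, cerebellum and dorsal spinal cord. *Tfap2b* had 0 UMIs in control members and 17, 69.7 and 224 CPM in *Eed-cKO* members, at least 49.8-fold higher, and *Tfap2a* was at least 24.3-fold higher (11.8, 23.7 and 59.6 CPM). *Vax2*, a homeobox gene of the ventral eye, was at least 28.2-fold higher (17.5, 32.9 and 56.1 CPM). *Tal1*, which encodes a basic helix-loop-helix factor of blood and of GABA neurons of the midbrain and spinal cord (chr4:115056426-115071755, plus strand), went from 3 UMIs over the control members to 198 over those of *Eed-cKO*, a ratio of 77.7 (counting interval 26.2 to 380). Its level went from 0, 0 and 4.56 CPM to 76.3, 102 and 125 CPM, the tightest of these rises between embryos (adjusted p = 1.9e-14). *Slc30a3*, which encodes the zinc transporter of synaptic vesicles, was at 0 in control members and at 27.3, 37.7 and 64.5 CPM in *Eed-cKO*, at least 32.6-fold higher. The list of posterior and GABA determinant factors also held the eye gene *Vax2*. Of its 8 tested genes 6 rose (*Tfap2b*, *Tfap2a*, *Vax2*, *En1*, *Gata3* and *Gata2*). Of the 8 genes 4 were at 0 in control members, so they passed the filter only through *Eed-cKO* and could only be higher. The median log2 fold change of the 8 was 4.10 with those at the bound. In other neurons of *Eed-cKO*, *Tal1* stood at 85.0, 103 and 142 CPM and *Tfap2b* at 50.7, 95.2 and 169 CPM, ranges that overlapped those of Hmx neurons.

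The windows of *Hmx3* (chr7:131542713-131543012) and *Tal1* (chr4:115057561-115057860, the second of its RefSeq starts), both on the plus strand, are shown with each CG in capitals, since H3K27me3 is known to gather on start sites rich in CG. The *Hmx3* window holds 39 CG, a number that 4.45% of all windows reach, and that of *Tal1* holds 22, a number reached by 23.1%, where the median window holds 7. No chromatin mark was measured in these cells.
Hmx3: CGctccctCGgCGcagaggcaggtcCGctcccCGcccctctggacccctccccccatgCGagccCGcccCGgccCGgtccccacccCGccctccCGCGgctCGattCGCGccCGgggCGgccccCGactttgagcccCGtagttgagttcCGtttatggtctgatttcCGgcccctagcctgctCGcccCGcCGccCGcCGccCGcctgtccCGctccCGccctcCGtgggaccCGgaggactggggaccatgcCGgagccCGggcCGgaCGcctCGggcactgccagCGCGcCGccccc
Tal1: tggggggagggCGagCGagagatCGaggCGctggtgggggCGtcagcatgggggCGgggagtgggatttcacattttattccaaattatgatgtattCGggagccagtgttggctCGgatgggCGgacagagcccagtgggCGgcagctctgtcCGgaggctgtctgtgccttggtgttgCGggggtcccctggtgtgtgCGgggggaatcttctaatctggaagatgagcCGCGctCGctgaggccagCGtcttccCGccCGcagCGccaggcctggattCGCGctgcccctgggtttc

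The markers of the population moved in both directions. *Calcr* rose in *Eed-cKO* Hmx neurons from 50.2, 70.2 and 128 CPM to 119, 176 and 324 CPM at the lowest, median and highest embryo, and the ranges touched only between the highest control and the lowest *Eed-cKO* embryos. The log2 fold change was 1.41 ± 0.23 (adjusted p = 6.3e-05), and it stayed past the threshold in all 28 alternatives, from 1.17 to 1.96. In other neurons *Calcr* rose by 0.88 ± 0.18 (adjusted p = 0.0017), and the test of the difference between these effects gave 0.45 ± 0.20 (adjusted p = 0.68). The members with a *Calcr* UMI made up 11.5% in control, against 32.2% after loss of *Eed*.

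*Cited1* rose from 112, 136 and 220 CPM to 181, 266 and 506 CPM, with overlap at the edges (0.90 ± 0.18, adjusted p = 0.0018), a call lost with TREAT (highest adjusted p 0.101). In other neurons it differed by 0.18 ± 0.21 (adjusted p = 0.62), and the difference between the effects was 0.65 ± 0.17 (adjusted p = 0.066). *Gal* fell from 125, 311 and 414 CPM to 103, 148 and 251 CPM, with wide overlap (log2 fold change -0.78 ± 0.20, adjusted p = 0.019). This call was lost under DESeq2, limma-voom with TREAT, with at least 2 Hmx UMIs, without control embryo 1 and without *Eed-cKO* embryo 3 (highest adjusted p 0.526). The members with a *Gal* UMI made up 31.0% of those of control embryos, against 25.3% in *Eed-cKO*. *Isl1*, at 177, 366 and 445 CPM in control and 289, 359 and 419 CPM in *Eed-cKO*, gave 0.04 ± 0.14 (adjusted p = 0.96), and *Ecel1* gave -0.12 ± 0.20 (adjusted p = 0.87). The rule genes *Hmx2* (118, 190 and 227 CPM to 106, 152 and 208) and *Hmx3* (105, 145 and 203 to 90.7, 127 and 253) did not pass the test, which describes members selected for a UMI of them.

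**Figure D3:**
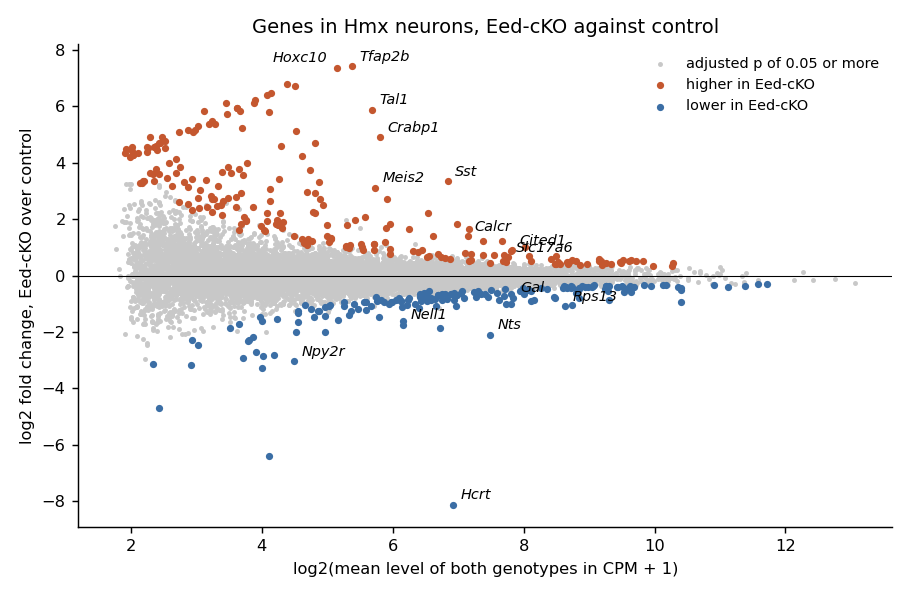
Fitted log2 fold change of each tested gene, *Eed-cKO* over control Hmx neurons (y axis), against its mean level (x axis, log2 of CPM + 1). Red points are higher and blue points lower in *Eed-cKO* at an adjusted p of 0.05, grey points did not pass. There are 219 red and 174 blue points, and the fitted values of genes at 0 UMIs in a genotype, such as *Tfap2b* and *Hoxc10*, depend on the model's prior count and are given as bounds in the text.

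The 10 largest falls without overlap between the genotypes' embryos were of genes with varied roles. *Npy2r*, which encodes the Y2 receptor of neuropeptide Y and peptide YY (chr3:82538383-82548084), went from 22.8, 33.8 and 71.0 CPM to 0, 2.12 and 13.1 CPM (log2 fold change -3.03 ± 0.47, adjusted p = 2.9e-05), with 36 control and 7 *Eed-cKO* members holding a UMI. *Nell1*, which encodes a secreted protein with EGF-like repeats (chr7:49974864-50866608, with an antisense transcript), went from 87.7, 104 and 155 CPM to 0, 26.5 and 62.4 CPM (-1.75 ± 0.24, adjusted p = 3.2e-06). *Myo7a*, an unconventional myosin gene, fell by 3.27 ± 0.56 on the log2 scale, and the adhesion molecule genes *Cntn6* and *Pcdh11x* by 1.64 ± 0.38 and 1.6 ± 0.25. *Slc18a2*, the vesicular monoamine transporter gene, fell by 1.27 ± 0.28, the synaptic scaffold gene *Frmpd4* by 2.32 ± 0.52, *Tbcel*, a relative of tubulin folding cofactors, by 1.24 ± 0.31, *Fam103a1* by 1.19 ± 0.25 and the ribosomal protein gene *Rps13* by 1.08 ± 0.12 (adjusted p = 3e-08). The call of *Tbcel* was lost in 7 of 28 alternatives, among them without control embryo 4 and without *Eed-cKO* embryo 3 (highest adjusted p 0.615). The calls of *Cntn6*, *Frmpd4*, *Slc18a2*, *Fam103a1* and *Npy2r* were lost in 1 to 3 alternatives each, none of which left out an embryo. In other neurons *Myo7a* (-3.80 ± 0.22), *Fam103a1* (-1.20 ± 0.11), *Rps13* (-1.09 ± 0.08), *Nell1* (-1.0 ± 0.10) and *Npy2r* (-0.95 ± 0.25) fell too. Of the 10 genes only *Pcdh11x* had an effect that differed between Hmx neurons and other neurons by the interaction test (-1.16 ± 0.23, adjusted p = 0.00084), which DESeq2 and thinned cells did not call.

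Of 21 neuropeptide genes tested within Hmx neurons, 2 rose and 6 fell (median log2 fold change -0.27, against 0.00 over all genes). Among the falls, *Agrp* and *Npvf* were at 0 UMIs in *Eed-cKO* members, so they passed the filter only through control and could only be lower. *Nts* went from 67.7, 275 and 543 CPM to 2.59, 58.4 and 134 CPM (-2.09 ± 0.34, adjusted p = 8.3e-05), from 60 members with a UMI to 28, and its ranges overlapped between 67.7 and 134 CPM. *Pnoc*, the gene of prepronociceptin, rose by 0.64 ± 0.17, with 22.4% of control members holding a UMI, against 41.3% in *Eed-cKO*. The *Pnoc* call was lost in 10 of 28 alternatives, among them without control embryo 3, 4 or 6, without *Eed-cKO* embryo 3 or 6 and in thinned cells (highest adjusted p 0.612).

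The remaining peptide calls rested on few cells. *Hcrt*, the orexin gene, had 629 UMIs in 5 control members, 436 of them in 1 cell, and 1 UMI in *Eed-cKO*. *Npvf* had 78 UMIs in 3 control members and 0 in *Eed-cKO* (at least 22.1-fold lower), *Agrp* had 25 in 5 and 0, and *Tac2* was counted 59 times over 8 control members against 7 times over 2 *Eed-cKO* members. The *Tac2* call was lost in 14 of 28 alternatives, among them without any of control embryos 2, 4 and 5 and *Eed-cKO* embryos 1, 3, 5 and 6, and that of *Agrp* in 8 of 22, among them without any of *Eed-cKO* embryos 1, 2, 3, 5 and 6. Those of *Hcrt* and *Npvf* were lost with TREAT, and that of *Npvf* also under DESeq2. *Sst* rose from 55 UMIs in 18 members to 595 in 30 (3.34 ± 0.61, adjusted p = 0.00045), with 75.5% of the *Eed-cKO* UMIs in 3 cells and 429 of them in *Eed-cKO* embryo 3, and DESeq2 and TREAT on embryo sums did not make this call (highest adjusted p over alternatives 0.446). *Th* fell from 16, 51.2 and 93.9 CPM to 0, 12.2 and 39.3 CPM (-1.58 ± 0.39, adjusted p = 0.014), from 42 members with a UMI to 19, a call lost without control embryo 1 and without control embryo 5 (highest adjusted p 0.255).

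Transmitter genes moved by smaller steps. *Slc17a6* rose from 109, 180 and 215 CPM to 200, 245 and 369 CPM (0.64 ± 0.15, adjusted p = 0.0096), and *Gad2*, a synthesizing enzyme of GABA, fell from 253, 325 and 414 to 174, 202 and 283 CPM (-0.56 ± 0.13, adjusted p = 0.0086), both with overlap at the edges. Both calls were lost with at least 2 Hmx UMIs and with TREAT, and that of *Gad2* also in thinned cells. *Gad1* gave 0.01 ± 0.12 (adjusted p = 0.99) and *Slc32a1* -0.24 ± 0.14 (adjusted p = 0.47).

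Of 30 hypothalamic transcription factors, 4 rose and 2 fell (median log2 fold change 0.22). *Meis2*, a TALE homeobox gene (chr2:115863064-116065839), went from 0, 4.55 and 39.7 CPM to 45.1, 96.8 and 142 CPM without overlap (3.12 ± 0.36, adjusted p = 5e-08), from 11 members with a UMI (2.70%) to 81 (24.4%). Among other neurons the cells with a *Meis2* UMI also became more frequent, from 8.98% to 26.7%, shares that were not tested. *Tbx3*, which arcuate peptide neurons need to take on their identity, went from 8.05, 29.3 and 41.4 to 32.2, 73.6 and 152 CPM (1.69 ± 0.28, adjusted p = 8.3e-05). *Onecut2* rose by 1.40 ± 0.24, *Rax* went from 1 to 18 UMIs (ratio 21.2, counting interval 3.34 to 883), and *Dlx1*, a factor of GABA neurons of the forebrain, fell from 274, 483 and 575 to 176, 261 and 388 CPM (-0.78 ± 0.15, adjusted p = 0.0007). *Nr2f2* fell by 0.62 ± 0.13. The call of *Rax* was lost in 9 of 23 alternatives, among them without any of control embryos 2 to 6 and without *Eed-cKO* embryo 6. That of *Tbx3* was lost in thinned cells, that of *Onecut2* with at least 2 Hmx UMIs, that of *Dlx1* with TREAT on embryo sums and that of *Nr2f2* with at least 2 Hmx UMIs and with TREAT on embryo sums. The genes of the growth hormone axis and hormone receptors gave 0 calls of 10 tested (median 0.00), with *Igf1r* at -0.18 ± 0.18 and *Insr* at 0.02 ± 0.20.

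Of 10 immediate early genes, which respond to activity and to tissue dissociation, 5 rose (*Fos* by 1.00 ± 0.24, *Fosb* by 1.85 ± 0.40, *Ier2* by 2.73 ± 0.43, *Jun* by 0.72 ± 0.20, and *Atf3*, from 3 to 28 UMIs). The call of *Jun* was lost in 11 of 28 alternatives, among them without control embryo 3, 4 or 5 and without *Eed-cKO* embryo 2, 3 or 6 (highest adjusted p 0.359). That of *Fos* was lost in 4, among them without *Eed-cKO* embryo 3, and that of *Fosb* under DESeq2. That of *Atf3* was lost in 15 of 25, among them without the largest library, without any of control embryos 1, 2, 4, 5 and 6 and without any of *Eed-cKO* embryos 3, 5, 6 and 8. Their summed level was 269 to 952 CPM in control and 658 to 1989 CPM in *Eed-cKO* members, and 484 to 767 CPM against 830 to 1576 CPM in other neurons. Of 5 cyclin-dependent kinase inhibitor genes tested 1 was called, *Cdkn2b*, with 0 UMIs over the control members and 19 in *Eed-cKO* (at least 7.45-fold higher), which passed the filter only through *Eed-cKO* and could only be higher.

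Markers of other cell types moved with the genotype in the same sums. All 5 fibroblast genes rose, 3 of them from 0 UMIs in control members (summed level 0 to 10.9 CPM in control and 0 to 583 CPM in *Eed-cKO*), with 501 UMIs in 43 *Eed-cKO* members, 74.1% of them in 3 cells and 291 in *Eed-cKO* embryo 3. Of 4 cycling genes 3 rose (0 to 11.8 against 0 to 259 CPM), with 85.6% of the 125 UMIs in 3 cells and 100 of them in *Eed-cKO* embryo 5. Of 6 astrocyte genes *Slc1a3* and *Apoe* rose (63.9 to 434 against 46.8 to 1133 CPM), of 5 ependymal and tanycyte genes *Vim* and *Rax* (47.9 to 184 against 110 to 411 CPM), and of the pituitary genes *Cga*, with all 47 *Eed-cKO* UMIs in *Eed-cKO* embryo 3. Microglia and macrophage genes went from 2 UMIs in 2 control members to 35 in 12 *Eed-cKO* members (summed level 0 to 6.89 against 0 to 90.3 CPM), 18 of them in *Eed-cKO* embryo 3, but no gene of this list or of the endothelial list reached the filter, and 0 of 2 oligodendrocyte precursor genes passed. In control members *Dcn*, *Col1a1* and *Lum* were at 0 UMIs, and endothelial and mural genes summed to 0 to 37.8 CPM in control and 0 to 36.1 CPM in *Eed-cKO*. The calls of *Col1a1* and *Lum* were lost with TREAT, those of *Col1a2*, *Col3a1* and *Dcn* under DESeq2 and with TREAT on embryo sums, and those of *Slc1a3* and *Top2a* likewise. The calls of *Apoe*, *Cdk1*, *Ccnb1* and *Cga* were lost in 8 to 11 alternatives each. For *Apoe* these held control embryos 1, 2, 4 and 6 and *Eed-cKO* embryos 3 and 6 left out, for *Cdk1* control embryos 1, 2, 4, 5 and 6 and *Eed-cKO* embryo 3, for *Ccnb1* each control embryo, and for *Cga* control embryos 1, 3, 4, 5 and 6. The part of these cells in the other calls was not tested beyond leaving out each embryo and the doublet-scored cells, without which 315 genes were called.

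**Figure D4:**
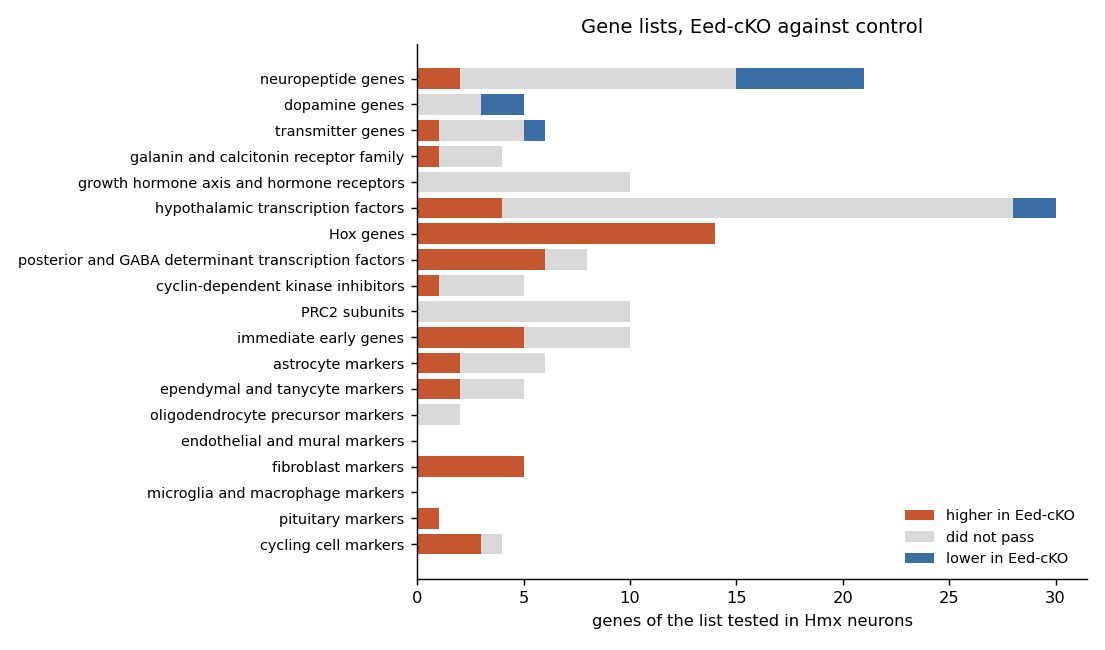
Number of tested genes per list (x axis) that were higher in *Eed-cKO* (red), lower (blue) or did not pass (grey) in Hmx neurons. The 14 Hox genes tested and 3 of the 5 fibroblast markers were at 0 UMIs in control members, so they passed the filter only through *Eed-cKO* and could only be higher. Of the 21 neuropeptide genes 6 were lower. Among these, *Agrp* and *Npvf* were at 0 UMIs in *Eed-cKO* members and could only be lower.

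The *Eed-cKO* effect itself differed between Hmx neurons and other neurons for 39 of 15567 genes (0.251%) by the interaction test of edgeR, 21 with a higher and 18 with a lower effect in Hmx neurons. The number was 71 without the largest library and 73 without control embryo 5, and DESeq2 gave 6. Of these genes 26 were also among the 393. The first by p was *Tcf7l2*, a Wnt pathway transcription factor gene of the thalamus and midbrain (chr19:55741820-55933654). In Hmx neurons it went from 44.3, 87.8 and 180 CPM to 118, 228 and 375 CPM at the lowest, median and highest embryo (1.24 ± 0.23), and in other neurons from 120, 510 and 765 to 59.1, 77.5 and 480 CPM (-1.97 ± 0.44). The difference was 3.33 ± 0.23 (adjusted p = 4.6e-27), and it held in every alternative run, down to 2.66.

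Some genes that set control Hmx neurons apart were among those whose effects differed. The interaction contains the control difference between Hmx neurons and other neurons. A gene picked by both therefore tends to be closer in *Eed-cKO* through the choice alone. The genes named here are examples, and no count over all called genes was made. *Nts* gave -1.83 ± 0.25 (adjusted p = 4.3e-08) for an effect of -2.09 in Hmx neurons and -0.08 ± 0.22 in other neurons. *Meis2*, rare in control Hmx neurons, gave 2.85 ± 0.29 (adjusted p = 6.1e-14), with 0.22 ± 0.13 in other neurons, where cells with a UMI also became more frequent. *Sox3* (-1.80), *Nap1l5*, an imprinted gene (972, 1748 and 2688 to 712, 929 and 1188 CPM, interaction -0.94 ± 0.10), and *Zcchc12* (1147, 1633 and 2004 to 765, 1128 and 1389 CPM, -0.63 ± 0.08) were likewise higher in control Hmx neurons than in other neurons and closer to them in *Eed-cKO*. *Ebf3* (1.90 ± 0.30), *Kitl* (2.15 ± 0.33), *Sst* (2.68 ± 0.35) and *Slc17a6* (0.66 ± 0.13) had been lower in Hmx neurons and were closer in *Eed-cKO*. Of these differences, those of *Nts*, *Sox3*, *Nap1l5*, *Ebf3*, *Kitl*, *Sst* and *Slc17a6* were not called by DESeq2, and those of *Nts*, *Ebf3*, *Kitl* and *Slc17a6* were not called in thinned cells. Those of *Sox3* and *Slc17a6* were also lost with at least 2 Hmx UMIs, while those of *Meis2* and *Zcchc12* stayed past the threshold in all 24 alternatives. *Ttr*, a choroid plexus gene, gave -5.05 ± 0.70, with 823 CPM in the other neurons of 1 *Eed-cKO* embryo, and the call was lost without *Eed-cKO* embryo 7, under DESeq2 and in thinned cells (adjusted p up to 1).

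**Figure D5:**
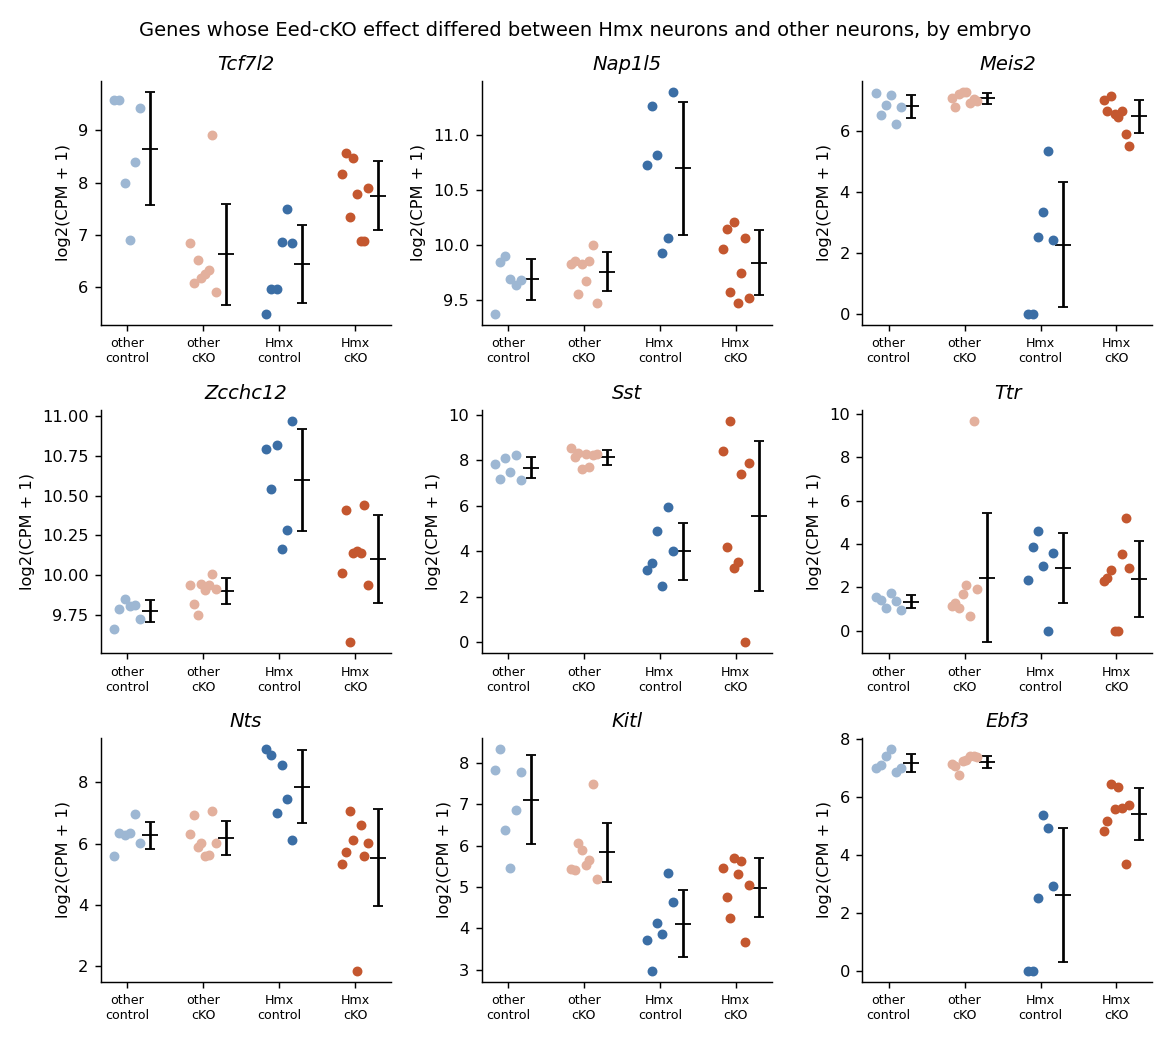
Level as log2(CPM + 1) of 9 of the 10 genes with the smallest p of the interaction, in other neurons and Hmx neurons of each genotype, 1 point per embryo with mean and SD. The level of *Tcf7l2* falls in other neurons, where the share of cells with a UMI does not, and rises in Hmx neurons. The y axes differ between panels and do not start at 0.

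Cells of the *Eed-cKO* members with and without a Hox UMI were set side by side as a description, since depth differed (medians of 5876 and 4950 UMIs). *Meis2* was found in 39.1% of the 169 with a Hox UMI and 9.20% of the 163 without, *Tal1* in 48.5% and 16%, and *Slc17a6* in 61.5% and 36.8%. *Isl1* was found in 56.8% and 76.1% and *Calcr* in 26.6% and 38.0%, lower in the deeper cells, while *Gal* was found in 24.9% and 25.8%.

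Markers were combined within cells as well. *Calcr* was detected in 17.5% of the control members with *Gal* and 8.90% of those without, and in 47.6% and 27.0% in *Eed-cKO*. *Cited1* was detected in 31.9% of the control members with *Calcr* and 22.5% of those without, and in 56.1% and 32.4% in *Eed-cKO*. Members of 1 embryo share their source, and cells with a marker were deeper (5726 against 4902 UMIs at the median for *Gal* in control), so these shares are a description.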

How the data were processed

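Single-cell RNA-seq of hypothalamic cells from E18.5 control and *Eed-cKO* embryos was used. The authors deposited raw UMI counts for 16510 genes in 14121 filtered cells of 48 libraries, from the SureCell RNA Single-Cell workflow. The submitters' processing notes name STAR 2.5.2b, SAMtools 1.3 and mm10, and the strand used in counting is not given in the sources used here. No filter on cells was added, and 0 columns were left unmapped.

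Cells were assigned to embryos by library name, whose leading number was taken for the litter without a label that says so. UMIs of members and of other neurons were summed per embryo, embryos with under 10 members were left out, and genes with at least 15 UMIs over the sums and 2 in 1 sum were tested with edgeR 4.0.16 (glmQLFit and glmQLFTest, TMM, Benjamini-Hochberg, adjusted p 0.05) in R 4.3.3. The 2 sums of an embryo were blocked by embryo. The rule genes were left out of comparisons of members with other neurons. Shares were compared by exact permutation over embryos. Alternatives used DESeq2 1.42.0, limma 3.58.1 (voom with TREAT at 0.18), other filters, scalings, depths and cells, and each embryo left out. In Python 3.11.15, Scrublet scored doublets. Tested on simulated data, the comparison of genotypes within Hmx neurons recovered 50.5% of 2-fold and 83.0% of 4-fold changes among 191 changed genes, with 8.63% false calls.

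Named genes were the markers and *Ghrh*, the 10 largest rises and falls between the genotypes without overlap of embryos and with at least 20 CPM, the 10 largest rises and 5 largest falls against other neurons in control, the 10 smallest p of the interaction, and up to 4 genes of each of 19 lists (252 genes). Further list members are named as examples, chosen after their values were seen. The 5 falls against other neurons were at 0 UMIs in control members (*En1*, *Tfap2b*, *Slc30a3*, *Lrrc23* and *Postn*), so no fold is given for them. A gene that these rules name is not reported here. The members and lists were chosen with earlier results of these data known.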

Additional observations from a re-analysis of the deposited data

Results flagged for a closer look

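Of 92 groups of embryos checked, 5 held an embryo far below the others of its genotype in the level of a named gene in Hmx neurons, where chance gives about 1 in 20 groups. These were *Hmx2* in control embryo 3 (118 CPM), *Tbx3* in control embryo 1 (8.05 CPM), *Mtf2* in control embryo 5 (132 CPM), *Nell1* in *Eed-cKO* embryo 7 (0 CPM) and *Nts* in *Eed-cKO* embryo 5 (2.59 CPM).

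For 18 named genes the *Eed-cKO* effect differed between Hmx neurons and other neurons by edgeR's interaction test with Benjamini-Hochberg adjustment. The difference in log2 fold change, Hmx neurons minus other neurons, was above 0 for *Tcf7l2* (3.33), *Ghrh* (2.92), *Meis2* (2.85), *Sst* (2.68), *Slc1a3* (2.24), *Kitl* (2.15), *Ebf3* (1.90), *Apoe* (1.22) and *Slc17a6* (0.66). It was below 0 for *Zcchc12* (-0.63), *Nap1l5* (-0.94), *Pcdh11x* (-1.16), *Sox3* (-1.80), *Nts* (-1.83), *Ttr* (-5.05) and *Hcrt* (-5.41). *Tfap2b* (6.44) and *Slc30a3* (6.79) had 0 UMIs in control members, so their values depend on the prior count of the model and are no measure of size. Of the 18 differences, those of *Tcf7l2*, *Meis2* and *Zcchc12* stayed past the threshold in all 24 alternatives, and the other 15 were not called by DESeq2. That of *Ghrh* was also lost without *Eed-cKO* embryo 2 and without *Eed-cKO* embryo 4, that of *Hcrt* without control embryo 3, that of *Ttr* without *Eed-cKO* embryo 7 and that of *Slc1a3* without *Eed-cKO* embryo 6. That of *Apoe* was lost without control embryo 1 or 2 and without *Eed-cKO* embryo 3 or 6, and that of *Tfap2b* without control embryo 1, 3 or 6 and without *Eed-cKO* embryo 7.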

How the results depend on the processing

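No paired analysis was possible because, between the genotypes, the replicate numbers only follow the order of deposition. Hmx neurons and other neurons were compared within embryos, with the embryo as a block. Genotype and litter cannot be told apart, and genes at low levels rest on few UMIs per embryo. The largest library and embryos with at least 10 members were alternatives chosen after seeing the data, and results for which DESeq2 gave no adjusted p were left out. The share of Hmx neurons kept its direction in every setting run. Of 2472 values of 103 named results under the alternatives, 2231 kept direction and side of the threshold, 163 were no longer past it, 21 passed it only there and 57 changed sign. Of 85 results past the threshold, 37 stayed past it in every setting. The causes were not tested.

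The share with *Slc17a6* alone turned to 1.91 points with at least 2 Hmx UMIs and 5.68 with cells thinned to 2000 UMIs, and ranged from -1.93 to 1.64 with each embryo left out. The share with *Slc32a1* alone was -4.53 points in thinned cells. Genes called between the genotypes in Hmx neurons were 249 with DESeq2, 131 with at least 2 Hmx UMIs, 115 in thinned cells, 124 with TREAT on embryo sums, 687 with libraries as samples, and 235 to 474 with each embryo left out. Against other neurons in control they were 371 with DESeq2, 415 with at least 2 Hmx UMIs and 272 in thinned cells, and in *Eed-cKO* 207 with DESeq2, 227 in thinned cells and 295 to 426 with each embryo left out. The interaction gave 6 with DESeq2, 25 with the filter of the methods, 63 with genes of at least 1 UMI, 25 with at least 50, 12 in thinned cells, 71 without the largest library, and 32 to 73 with each embryo left out.

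Other signs changed as follows, in log2 fold change. Between the genotypes, *Isl1* was -0.054 without the largest library and -0.016 with libraries as samples. *Insr* was -0.24 in thinned cells, -0.074 without doublets, -0.025 without the largest library and -0.021 with libraries as samples. *Rbbp4* was -0.010 with at least 2 Hmx UMIs, -0.14 in thinned cells, -0.045 with TREAT on libraries, -0.011 with libraries as samples and -0.042 with sex as a covariate. *Olig1* was 0.60 with TREAT on embryo sums and on libraries. *Olig2* was 0.017 with library size alone, 0.0056 with RLE factors, 0.50 and 0.42 with TREAT on embryo sums and libraries, and 0.15 with libraries as samples. With each embryo left out, *Hmx3* ranged from -0.31 to 0.013, *Isl1* from -0.11 to 0.12, *Ecel1* from -0.27 to 0.036, *Ghrh* from -0.41 to 4.06, *Insr* from -0.082 to 0.086, *Rbbp4* from -0.079 to 0.087 and *Olig2* from -0.29 to 0.19. The interaction of *Isl1* was 0.31 with at least 2 Hmx UMIs, 0.079 in thinned cells and -0.18 to 0.060 with each embryo left out. That of *Ecel1* was 0.033 with at least 2 Hmx UMIs, 0.058 without the largest library and -0.23 to 0.10 with each embryo left out. *Ghrh* against other neurons was 0.098 in thinned cells, 0.0038 without doublets and -2.61 to 0.42 with each embryo left out in control, and -0.24 with DESeq2 and -2.54 with at least 2 Hmx UMIs in *Eed-cKO*.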
